A study of Mus musculus with 6 samples.

Results

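Microglia, the resident macrophages of the brain, read extracellular nucleotides through a set of surface receptors, and 7 genes of this system were followed in the frontal cortex of GFAP-IL6 and wild-type (WT) mice. The genes were P2ry12, P2ry13, P2ry6, P2rx4, P2rx7, Gpr34 and Entpd1, chosen by gene symbol from the 33000 genes of the count table, where each symbol had 1 row. The 3 WT mice were C57BL/6, and the 3 GFAP-IL6 mice were labelled with the same strain and homozygous for a transgene. The transgene places the inflammatory cytokine IL6 under the promoter of Gfap, the gene of an astrocyte filament protein, so that astrocytes are its source. All mice were 3 months old, and 1 TruSeq mRNA library, which covers transcripts along their full length, was made from the bulk RNA of each. The comparison of both genotypes asks how these receptor genes stand in a cortex with chronic IL6 release.

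ATP and ADP leave stressed or active cells and act on 2 classes of receptor. P2X receptors are ion channels opened by ATP, and P2Y receptors are G protein-coupled receptors for adenine or uracil nucleotides. P2ry12, which encodes an ADP receptor coupled to Gi, guides microglial processes towards sites of injury and is widely used as a marker of resting microglia. CD39, the enzyme encoded by Entpd1, breaks ATP and ADP down to AMP on the cell surface and so limits the signal at these receptors. Gpr34 encodes a receptor of the P2Y-like group whose known ligand is lysophosphatidylserine, and it is likewise abundant in microglia.

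The libraries held between 7559524 and 16877001 counts, with every GFAP-IL6 library shallower than every WT library. As a check of the genotype, Il6 reads numbered 0, 2 and 0 in the WT libraries and 12, 10 and 24 in those of GFAP-IL6, and Gfap averaged 94.4 and 677 CPM. Counts of the 7 genes lay between 30 and 932 per library, and all 7 passed the filter on low counts. The 15341 genes that passed were tested together with the quasi-likelihood test of edgeR, and a gene was called at a Benjamini-Hochberg adjusted p under 0.05. Levels are given as CPM (counts scaled to the library total and to TMM factors) for comparisons between libraries. For comparisons between genes they are given as TPM, which divides counts by gene length and rescales each library to the same total, without TMM factors. In bulk tissue, fewer microglia and less RNA per microglial cell cannot be told apart.

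The genes form neighbour pairs in the genome. On GRCm38, P2ry13 (ENSMUSG00000036362.2, chromosome 3, 59207892 to 59210882, minus strand) lies 5389 bases from P2ry12 (ENSMUSG00000036353.11, chromosome 3, 59216272 to 59262871, minus strand). Both sit inside Med12l, a gene of the opposite strand. P2ry12 shares 9 exon bases with Med12l, and P2ry13 shares 0. P2rx7 (ENSMUSG00000029468.15, chromosome 5, 122643911 to 122691432, plus strand) and P2rx4 (ENSMUSG00000029470.13, chromosome 5, 122707544 to 122729738, plus strand) are 16111 bases apart. Gpr34 (ENSMUSG00000040229.9, chromosome X, 13632089 to 13640858, plus strand) lies inside Cask, again on the opposite strand and with 0 shared exon bases. P2ry6 (ENSMUSG00000048779.4, chromosome 7, 100937630 to 100974649, minus strand) has P2ry2 as a neighbour, 21918 bases away. Entpd1 (ENSMUSG00000048120.14) spans 129237 bases of chromosome 19, from 40612366 to 40741602 on the plus strand.

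The neighbours P2ry12 and P2ry13 differed in their pattern across libraries, as described below, and the 250 bases upstream of their RefSeq starts (GRCm38.p6) are therefore shown side by side, 5′ to 3′ on the minus strand. The P2ry12 stretch is chr3:59262986-59263235 and the P2ry13 stretch is chr3:59210883-59211132. Capitals mark matches to GGAAGT or GAGGAA, partial forms of the purine-rich motif bound by the myeloid factor PU.1.
P2ry12: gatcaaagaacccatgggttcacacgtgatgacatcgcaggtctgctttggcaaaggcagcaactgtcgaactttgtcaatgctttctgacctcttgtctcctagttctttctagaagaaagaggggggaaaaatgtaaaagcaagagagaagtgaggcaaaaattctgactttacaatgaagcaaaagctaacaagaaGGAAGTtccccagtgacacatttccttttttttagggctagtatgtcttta
P2ry13: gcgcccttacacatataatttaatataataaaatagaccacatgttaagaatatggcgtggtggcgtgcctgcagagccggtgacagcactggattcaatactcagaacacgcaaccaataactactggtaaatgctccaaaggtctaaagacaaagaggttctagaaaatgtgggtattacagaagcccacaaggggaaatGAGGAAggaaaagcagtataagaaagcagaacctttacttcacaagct
The match began 51 bases upstream of the start in P2ry12 and 48 bases upstream in P2ry13. Searched on both strands, the overlapping letters GGAAGT were found in 19.7% and GAGGAA in 23.3% of the 32851 upstream stretches of this length in the RefSeq table, and the longer form GAGGAAGT in 2.44%. Neither stretch held GAGGAAGT or TTCNNNGAA, a core motif of STAT factors that 7.02% of all stretches contained. The table gave 7 stretches for 5 of the 7 genes, and P2ry6 and Gpr34 had no entry. Of the other stretches, the 2 of P2rx7 and the 1 of P2rx4 held none of these motifs, and 1 of the 2 of Entpd1 held GAGGAA. These matches are letters in a window and were not set against any measure of binding.

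Of the 7 genes, P2ry6 alone was past the adjusted threshold, at more than 2-fold its WT level in GFAP-IL6, while P2ry12, the most abundant, had a fitted level below that of WT and overlapping groups. In 5 of the 7 genes, namely P2ry13, P2ry6, P2rx4, P2rx7 and Entpd1, all GFAP-IL6 libraries lay above all WT libraries, and the other two had overlapping libraries. This held for 13.8% of all genes tested, and the reverse order, seen in 0 of the 7, held for 12.7%. A call in either direction was made for 1 of the 7 genes and for 2.86% of all genes tested, with 2.65% called higher and 0.209% called lower. Over the 7 genes, the median log2 fold change was 0.39, and 5 had a fitted value above 0. Over all genes tested the median was -0.0038, and 49.4% were above 0. At an unadjusted p under 0.05 there were 5 of the 7 genes, against 20.5% of all genes tested.

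**Figure D1:**
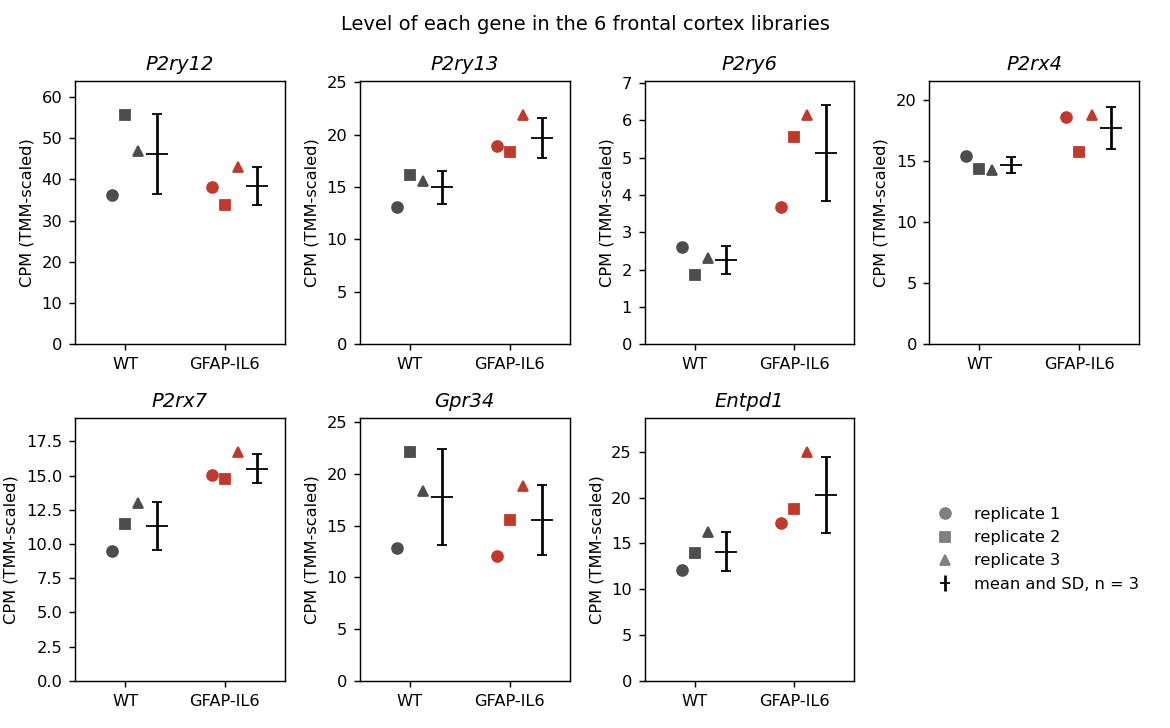
TMM-scaled CPM of each gene (y axis, from 0) in the 3 WT and 3 GFAP-IL6 libraries, with a symbol per replicate number and the mean with SD (n = 3) beside each group. The GFAP-IL6 libraries of P2ry6 sit between 3.67 and 6.13 CPM, above WT at 1.85 to 2.61 CPM, whereas those of P2ry12 and Gpr34 overlap WT.

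P2ry6, which encodes a receptor for UDP that is linked to Gq and to phagocytosis by microglia, was the least abundant member in WT. Its level was 2.61, 1.85 and 2.32 CPM in WT replicates 1, 2 and 3 and 3.67, 5.54 and 6.13 CPM in GFAP-IL6 replicates 1, 2 and 3. The groups did not overlap, and GFAP-IL6 replicate 1 stood closest to WT. The mean went from 2.26 ± 0.385 to 5.11 ± 1.28 CPM (SD, n = 3 each), for which edgeR gave a log2 fold change of 1.17 ± 0.25 (SE) and an adjusted p of 0.0243. In linear terms this was 2.26-fold, with a 95% interval from 1.54 to 3.30. P2ry6 was thus also past the fold threshold of the study, an absolute log2 fold change over 1, which 1.38% of all genes tested met together with the adjusted p. With the prior of DESeq2, which shrinks fold changes, its value was 0.53 and below that threshold, at an adjusted p of 0.0168. Its counts were between 30 and 55 per library, and for 30 counts the exact 95% Poisson interval, which covers counting error only, runs from 20.2 to 42.8. The call rested on few libraries, as the adjusted p by edgeR was 0.0558 without WT replicate 3, 0.103 without GFAP-IL6 replicate 2 and 0.183 without GFAP-IL6 replicate 3. Its fitted value was 1.02 to 1.38 when any single library was omitted.

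P2ry12 had the highest level of the set. It measured 36.1, 55.5 and 47.0 CPM in WT replicates 1, 2 and 3 and 38.1, 33.8 and 43.0 CPM in GFAP-IL6. WT replicates 2 and 3 lay above all GFAP-IL6 libraries, and WT replicate 1 lay between them. The means were 46.2 ± 9.73 and 38.3 ± 4.64 CPM (SD, n = 3 each). The log2 fold change was -0.27 ± 0.14 (SE), with a 95% interval from -0.58 to 0.03 and an adjusted p of 0.291 by edgeR, so a change was not detected, and the interval holds no increase over 1.02-fold. WT replicates 1 and 2 weighed on this value in opposite directions. Without WT replicate 1 the log2 fold change was -0.41, and the adjusted p by edgeR was 0.0462, whereas without WT replicate 2 the values were -0.12 and 0.668.

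Gpr34 likewise had a fitted value below 0 and was not called. Its level was 12.9, 22.1 and 18.4 CPM in WT and 12.1, 15.6 and 18.8 CPM in GFAP-IL6, for replicates 1, 2 and 3 of each. The ranges of both groups overlapped over most of their length, with means of 17.8 ± 4.64 and 15.5 ± 3.38 CPM (SD, n = 3 each). The log2 fold change was -0.22 ± 0.20 (SE), with a 95% interval from -0.65 to 0.20 and an adjusted p of 0.540 by edgeR. The value was -0.39 without WT replicate 1 and also without GFAP-IL6 replicate 3, -0.04 without WT replicate 2 and -0.06 without GFAP-IL6 replicate 1. Cask, the gene that surrounds Gpr34, had a log2 fold change of -0.19 ± 0.08 (SE) and an adjusted p of 0.225 by edgeR.

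Markers of oligodendrocytes, the myelin-forming cells, had an order of libraries close to that of P2ry12. Such an order was set beside the members only for this list and the homeostatic microglia markers. From high to low, the homeostatic markers had GFAP-IL6 replicates 3, 1 and 2 and then WT replicates 2, 3 and 1. P2ry13 shared that order, and P2ry12 did not. The oligodendrocyte markers had a summed level of 3221, 5932 and 5361 CPM in WT replicates 1, 2 and 3 and 4210, 3242 and 5061 CPM in GFAP-IL6. WT replicate 2, WT replicate 3, GFAP-IL6 replicate 3 and GFAP-IL6 replicate 1 led in this order by both measures. WT replicate 1 and GFAP-IL6 replicate 2 were the lowest by both, with their order swapped. Gpr34 had another order, with GFAP-IL6 replicate 3 above WT replicate 3 and GFAP-IL6 replicate 1 lowest. The list had 6 markers, all 6 tested, with 0 called and a median log2 fold change of -0.21, and its range was 3221 to 5932 CPM in WT and 3242 to 5061 CPM in GFAP-IL6. Mbp and Cnp, which encode proteins of myelin, were among its most abundant members. The part of this variation in the values of P2ry12 and Gpr34 was not tested.

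P2ry13 encodes a further Gi-coupled ADP receptor. It measured 13.1, 16.1 and 15.6 CPM in WT and 18.9, 18.3 and 21.8 CPM in GFAP-IL6. Every GFAP-IL6 library was above every WT library, unlike the pattern of its neighbour P2ry12. The log2 fold change was 0.39 ± 0.12 (SE), which was not past the threshold at an edgeR-adjusted p of 0.112. As a share of the TPM of P2ry12 in the same library, P2ry13 was at 35.1%, 28.1% and 32.1% in WT and at 47.8%, 52.4% and 49.0% in GFAP-IL6. The groups did not overlap in this ratio, nor did they in the ratios of P2ry6, P2rx4, P2rx7 and Entpd1 to P2ry12, so it was not particular to the neighbours. A fitted value of P2ry12 below 0 raises every such ratio. The share of all genes tested that separate in a ratio to P2ry12 was not counted, so the separation is not read as a trait of these genes. For Gpr34 the ratio to P2ry12 overlapped, at 41.7%, 46.5% and 45.7% in WT and 37.0%, 53.9% and 51.2% in GFAP-IL6. Med12l, named for its place, which surrounds both on the opposite strand, was at 0.10 ± 0.08 (log2 fold change, SE) and an edgeR-adjusted p of 0.528. P2ry14, a receptor for UDP-sugars in the same cluster, was at -0.42 ± 0.25 (SE) and an edgeR-adjusted p of 0.364, and all its GFAP-IL6 libraries were below WT.

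In both P2X channels of the set, all GFAP-IL6 libraries were above WT. P2rx7, whose channel opens at high ATP and is known for triggering the inflammasome and release of IL1, measured 9.48, 11.5 and 12.98 CPM in WT and 15.0, 14.8 and 16.7 CPM in GFAP-IL6. P2rx4, whose channel responds to lower ATP and is associated with microglia in neuropathic pain, measured 15.4, 14.4 and 14.2 CPM in WT and 18.6, 15.7 and 18.7 CPM in GFAP-IL6. In P2rx7 the closest libraries were WT replicate 3 at 12.98 CPM and GFAP-IL6 replicate 2 at 14.8 CPM. The latter had 112 counts, for which the exact 95% Poisson interval runs from 92.2 to 135. In P2rx4 the gap between GFAP-IL6 replicate 2 and WT replicate 1 was narrow. The log2 fold changes were 0.45 ± 0.14 for P2rx7 and 0.28 ± 0.12 for P2rx4 (SE), with adjusted p values of 0.109 and 0.202 by edgeR, so neither was called. Their 95% intervals ran from 0.15 to 0.74 and from 0.029 to 0.53, and neither interval reaches a doubling.

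Entpd1 measured 12.1, 13.9 and 16.3 CPM in WT and 17.2, 18.7 and 24.97 CPM in GFAP-IL6. The groups did not overlap, with GFAP-IL6 replicate 3 well above the rest. The means were 14.1 ± 2.11 and 20.3 ± 4.12 CPM (SD, n = 3 each), for which edgeR gave a log2 fold change of 0.51 ± 0.16 (SE) and an adjusted p of 0.106. Without GFAP-IL6 replicate 3 the value fell to 0.34, with an adjusted p of 0.404. Entpd1 is also expressed by endothelial cells, and markers of those cells moved in the same direction. The 9 endothelial genes, all 9 tested, had a summed level of 195 to 224 CPM in WT and 267 to 309 CPM in GFAP-IL6, with 4 called higher, 0 called lower and a median log2 fold change of 0.54. Among these, Cldn5, a tight junction gene, had a log2 fold change of 0.93 with an adjusted p of 0.00177, Esam, an adhesion gene, had 0.69 with 0.00916, and the transporter gene Slco1c1 had -0.14 with 0.459. The part of endothelial cells in the value of Entpd1 was not tested.

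The order of the genes per length was then compared. In WT, P2ry12 was first with a mean of 52.4 TPM, followed by Gpr34 with 23.5, P2ry13 with 16.4, P2rx4 with 15.1, Entpd1 with 9.01, P2rx7 with 5.81 and P2ry6 with 3.25 TPM (n = 3). Neighbours in this order had libraries that did not overlap, except P2ry13 and P2rx4, which were in this order in 2 of 3 libraries. In GFAP-IL6 the means were 45.8 TPM for P2ry12, 22.7 for P2ry13, 21.6 for Gpr34, 19.1 for P2rx4, 13.6 for Entpd1, 8.37 for P2rx7 and 7.69 for P2ry6 (n = 3). Gpr34 could not be ranked against P2ry13 or P2rx4 beyond their spread there, nor could P2rx7 against P2ry6. All GFAP-IL6 libraries of P2ry13 lay above those of P2rx4. Levels per length rest on the gene lengths of the count table, which for P2rx4 was 2702 bases where the exons of GENCODE M21 cover 7025 and for P2ry6 1938 bases where they cover 2887. The sum over the 7 genes averaged 125 ± 15.8 TPM for WT and 139 ± 16.3 TPM for GFAP-IL6 (SD, n = 3 each), and the groups overlapped (exact two-sided permutation p of 0.5).

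The share of each gene in this sum was compared next. P2ry12 took 39.2%, 44.3% and 41.1% of the summed TPM in WT and 35.2%, 31.3% and 32.5% in GFAP-IL6. The mean share went from 41.5% ± 2.59 to 33.0% ± 2.003 (SD, n = 3 each), lower by 8.55 percentage points and with no overlap of the groups. The shares of P2ry13, P2ry6, P2rx7 and Entpd1 were higher in every GFAP-IL6 library than in any WT library, by 3.25, 2.86, 1.41 and 2.54 percentage points. Those of P2rx4 and Gpr34 overlapped. With 3 against 3 libraries the exact two-sided permutation test cannot go below a p of 0.1, which was the value for the 5 genes without overlap, or 0.14 adjusted over the 7. As shares sum to a whole, these 7 values are not independent, and a lower share of P2ry12 raises the others by construction. Shares of this sum have no counterpart over all genes tested, so the count of separated genes has no background here.

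**Figure D2:**
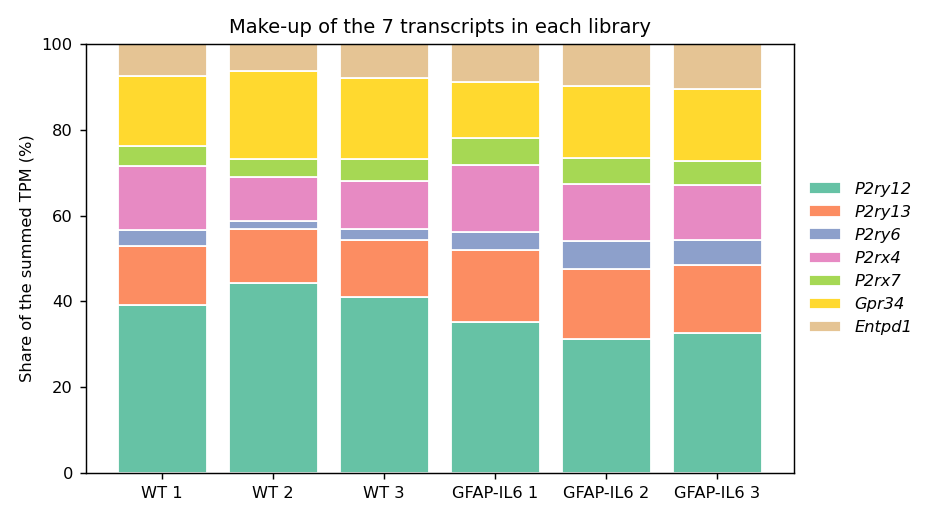
Share of the summed TPM of the 7 genes (y axis, percent) taken by each gene in each of the 6 libraries. P2ry12 takes 39.2% to 44.3% in WT and 31.3% to 35.2% in GFAP-IL6.

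Other genes of microglia were measured beside these receptors. The 9 homeostatic microglia markers had a summed level of 362 to 438 CPM in WT and 651 to 741 CPM in GFAP-IL6, a ratio of means of 1.69. All 9 were tested, 6 were called higher, 0 were called lower and the median log2 fold change was 0.72, against 0.39 for the 7 genes of the set. Csf1r, the receptor gene for the survival factor of microglia, had a log2 fold change of 0.87, and the fractalkine receptor gene Cx3cr1 had one of 0.63. Of the 12 pan-myeloid markers, all 12 were called higher, with a median log2 fold change of 1.45 and summed levels of 181 to 214 CPM in WT and 535 to 638 CPM in GFAP-IL6. The complement genes C1qa, C1qb and C1qc had log2 fold changes of 1.61, 1.54 and 1.504. The values of P2ry12 and Gpr34, at -0.27 and -0.22, were below the lowest of these 21 markers, which was 0.29 for the sugar transporter gene Slc2a5, named here for its value. P2rx4, at 0.28, was also just below it.

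**Figure D3:**
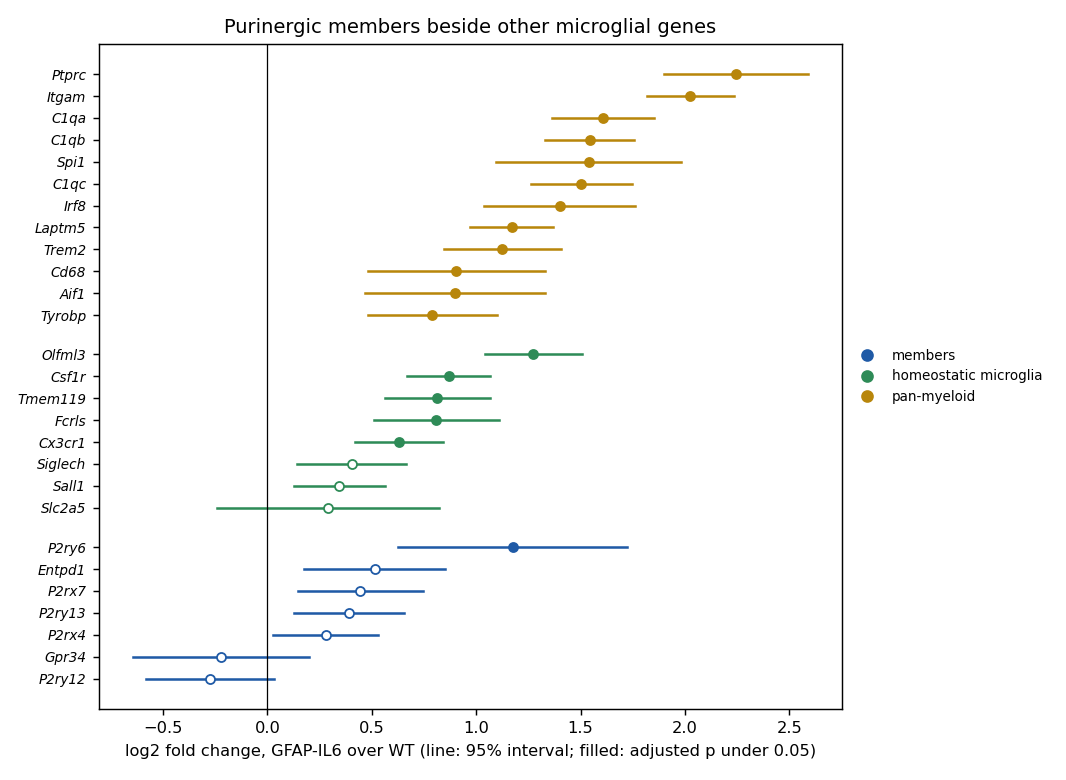
Log2 fold change of GFAP-IL6 over WT (x axis) with its 95% interval for the 7 genes, 8 of the 9 homeostatic microglia markers and the 12 pan-myeloid markers, with filled points at an adjusted p under 0.05. P2ry12 and Gpr34 are the only points to the left of 0.

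To set each gene beside its cell type within a library, the mean log2 CPM of the 9 homeostatic markers was subtracted from its log2 CPM. P2ry12 then stood at 0.51, 0.78 and 0.71 in WT and at -0.26, -0.36 and -0.23 in GFAP-IL6. The groups were separated by far more than the spread within either, with SDs of 0.14 for WT and 0.069 for GFAP-IL6 (n = 3 each). The difference was -0.95 for P2ry12 and -0.88 for Gpr34, where the libraries again did not overlap. For P2rx4, P2ry13 and P2rx7 it was -0.43, -0.30 and -0.23, also without overlap. P2ry6 and Entpd1 overlapped, with differences of 0.41 and -0.18. The exact two-sided permutation p was 0.1 for the 5 genes without overlap, the smallest this design allows, and 0.14 adjusted over the 7. Because the markers themselves were higher in GFAP-IL6, 79.1% of all genes tested had every GFAP-IL6 library below every WT library on this scale and 1.17% had the reverse, with a median difference of -0.69. The 5 of 7 genes below WT are thus no more than this background. P2ry12 and Gpr34 were below that median, and the other members were above it. Against the pan-myeloid list, where 96.5% of all genes tested were below WT in this way, 0.391% were above it and the median was -1.39, the differences were -1.64 for P2ry12, -1.57 for Gpr34, -1.12 for P2rx4, -0.99 for P2ry13, -0.92 for P2rx7, -0.87 for Entpd1 and -0.28 for P2ry6. P2ry6 thus changed sign with the list, and the libraries of Entpd1 no longer overlapped. Single libraries weighed on the smaller differences from the homeostatic list. That of P2ry6 ran from 0.20 without WT replicate 2 to 0.61 without GFAP-IL6 replicate 1, that of Entpd1 from -0.28 without GFAP-IL6 replicate 3 to -0.07 without WT replicate 3, and that of P2rx7 was -0.13 without WT replicate 3.

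**Figure D4:**
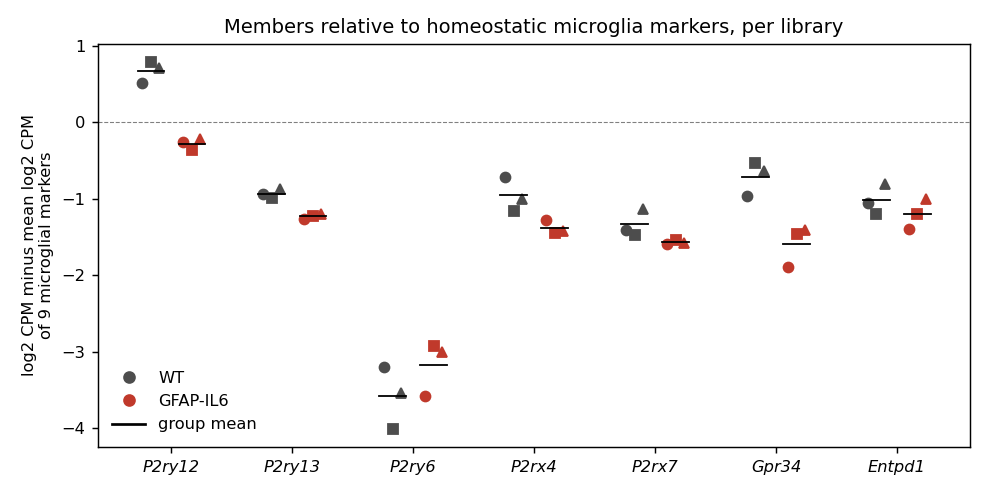
Log2 CPM of each gene minus the mean log2 CPM of the 9 homeostatic microglia markers (y axis) in each library, with a line at the group mean. P2ry12 lies above the markers in all WT libraries, at 0.51 to 0.78, and below them in all GFAP-IL6 libraries, at -0.36 to -0.23.

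Several of these receptors occur in other cells, whose markers were therefore counted. Border macrophage markers summed to 7.96 to 13.7 CPM in WT and 9.67 to 16.5 CPM in GFAP-IL6, and of the 4 of 7 that could be tested 0 were called. Mrc1, the mannose receptor gene, was the most abundant of them with a log2 fold change of 0.26. Of 12 markers of blood leukocytes, 1 passed the filter and was not called, with summed levels of 1.04 to 3.87 CPM in WT and 3.17 to 3.58 CPM in GFAP-IL6, and the others had few counts. Named for their values, the T cell gene Cd3d was at 0 counts in all libraries, while Cd3e was at 0 in WT and at 3, 1 and 2 counts in GFAP-IL6. Ccr2, Cd3e, Cd8a and Nkg7, likewise named for their values, had all GFAP-IL6 libraries above WT, with at most 14 counts in any library. None of them passed the filter, so the share over all genes tested does not apply to them. Platelets, in which P2ry12 is also known, had 2 of 5 markers tested, 0 called and sums of 11.6 to 13.2 and 11.5 to 14.2 CPM. Neuronal markers summed to 7234 to 7619 CPM in WT and 6180 to 7128 CPM in GFAP-IL6, with 0 of 7 called, and Snap25, a gene of synaptic vesicle fusion, had a log2 fold change of -0.20. The 5 astrocyte markers, with 0 called, summed to 1750 to 2169 and 1809 to 2152 CPM. The part of these cell types in the receptor values was not tested.

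The wider pathway was covered by 9 lists with 59 gene symbols, of which 58 were in the table and 42 passed the filter. Of these 42 genes, 2 were called higher and 0 lower, and their log2 fold changes had a median of 0.04. Among all genes tested, 2.65% were called higher and 0.209% lower. Whether 2 of 42 exceeds that share was not tested, so the count is not read as a trait of the pathway. Both called genes belong to the inflammasome list, the machinery that P2X7 is known to engage. Pycard, the gene of the adaptor ASC, rose from 2.25 to 5.66 CPM (n = 3 each), for which edgeR gave a log2 fold change of 1.31 ± 0.22 (SE) and an adjusted p of 0.00596. Gsdmd, which encodes the pore-forming protein gasdermin D, rose from 2.47 to 4.60 CPM, a log2 fold change of 0.92 ± 0.23 (SE). Its adjusted p by edgeR was 0.0499, at the edge of the threshold. The pathway count was 1 with DESeq2, with or without its prior, with DESeq2 size factors in edgeR and at a mean CPM of at least 1, and it was 5 without the low-count filter. Of the 6 inflammasome genes tested, 4 were not called. Il18 and Nek7 had log2 fold changes of -0.20 and -0.13.

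Among the other P2X channels, 2 of 5 were tested and 0 called. P2rx6 and P2rx3 had log2 fold changes of 0.33 and 0.15, and the remainder were at low counts. The count table held 5 further P2Y receptors, with 2 tested and 0 called. P2ry1, an ADP receptor coupled to Gq, measured 1.80 CPM in WT and 2.84 CPM in GFAP-IL6, with an adjusted p of 0.191 by edgeR. Adenosine, a product of ATP breakdown, is sensed by 4 receptors, all 4 tested and 0 called. Adora1, the most abundant of them, was at 225 CPM in WT and 235 CPM in GFAP-IL6, and Adora2b had a log2 fold change of 0.17. Adora2a had a log2 fold change of -1.03 ± 0.65 (SE), and WT replicate 2 stood apart at 14.1 CPM from the other libraries at 1.39 to 3.82 CPM. Adora3, named like Adora2a after its values were seen, had a log2 fold change of 0.94 ± 0.33 (SE) and an adjusted p of 0.148 by edgeR, with all GFAP-IL6 libraries above WT.

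The enzymes that handle nucleotides and adenosine had 10 of 14 genes tested and 0 called, with a median log2 fold change of 0.03. Adk, the kinase gene that clears adenosine, was at -0.08, and Entpd6, a relative of Entpd1, was at 0.05. Genes of nucleotide release and nucleoside uptake had 4 of 5 tested and 0 called. The pannexin gene Panx2 was at 0.25 with an adjusted p of 0.238, and the nucleoside transporter gene Slc29a1 was at 0.02. Around Gpr34, 3 of the 5 genes of lysophosphatidylserine production and sensing in the table were tested and 0 called. Abhd16a, which makes this lipid, was at -0.07, and Abhd12, which degrades it, was at -0.09.

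Of the G protein signalling genes, all 8 were tested and 0 called. Gnai1 and Gnai2, which encode Gi subunits of the kind P2Y12 uses, had log2 fold changes of -0.29 and 0.20. Gnai1 was below WT in all GFAP-IL6 libraries and Gnai2 above. Pik3r5 and Pik3cg, subunits of the lipid kinase PI3K gamma, were singled out after their values were seen. Their log2 fold changes were 0.85 ± 0.21 and 0.72 ± 0.20 (SE), with adjusted p values of 0.0528 and 0.0794 by edgeR. Of the genomic neighbours, 4 of 8 were tested and 0 called, and Camkk2, next to P2rx4, was at -0.04.

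**Figure D5:**
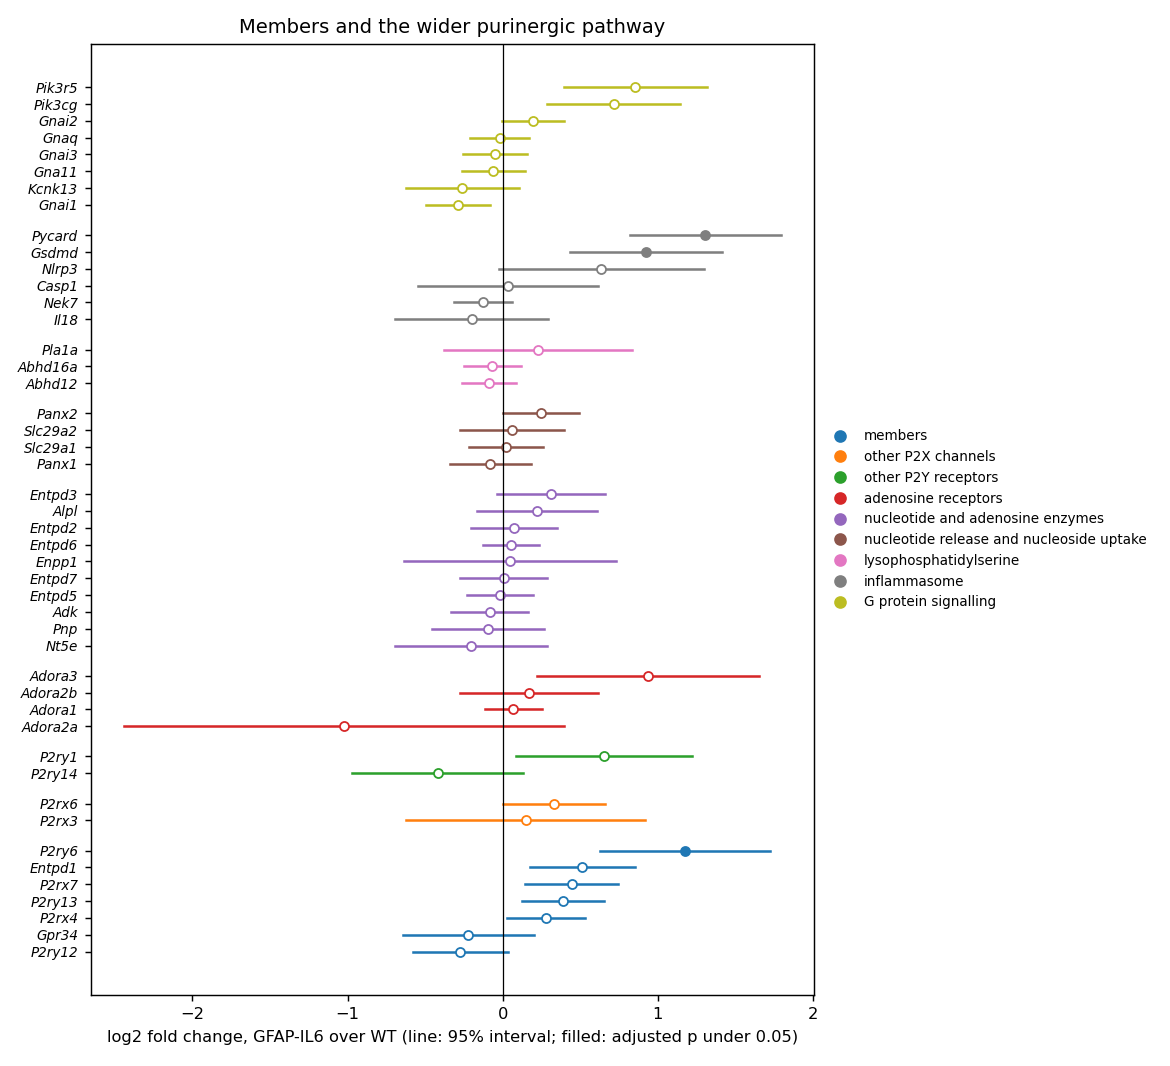
Log2 fold change of GFAP-IL6 over WT (x axis) with its 95% interval for the 7 genes and the tested genes of 8 pathway lists, with filled points at an adjusted p under 0.05. P2ry6, Pycard and Gsdmd are the filled points.

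Across the 6 libraries, the genes whose log2 CPM followed P2ry12 most closely were Fam134b, Kcnj16 and Stag2, with Pearson coefficients of 0.995, 0.992 and 0.991. Those closest to P2ry6 were Ppp1r10, 2510039O18Rik and Gm3764, at 0.9996, 0.998 and 0.996. These coefficients rest on only 6 points and are the highest among the 15341 genes tested, members left out. Over 0.95 there were 88 genes for P2ry12 and 160 for P2ry6. None of the 6 named genes was called at an adjusted p under 0.05 by edgeR.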

How the data were processed

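The deposited table of the authors gives raw counts for each gene and library, and a gene length in bases. According to the study's methods, STAR (version 2.4) placed the reads on mm10, reads on GENCODE genes were counted with featureCounts, and the strand setting of that step is not given in the sources used here. The values were raw counts with no normalization, and no duplicate reads were removed here. Replicates are separate mice as far as the labels tell, and no pair of libraries agreed within sampling noise (chi-square per degree of freedom from 2.23 to 20.1 over 15 pairs). Every pair with WT replicate 2, the deepest library, was at 11.6 or more, and every other pair was at 10.0 or less.

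Genes were tested with edgeR 4.0.16 (quasi-likelihood F-test, TMM, filterByExpr) in R 4.3.3, with group as the only term and Benjamini-Hochberg adjustment over all 15341 genes tested. DESeq2 1.42.0, limma 3.58.1 (voom), other scalings and filters, thinning and the omission of each library were run beside it, and fits were tested on simulated data. Standard errors and intervals follow from the F statistic. TPM used the length of the deposited table. Log2 CPM for relative levels used a prior count of 2. Positions came from GENCODE M21 (GRCm38) and upstream sequences from RefSeq (GRCm38.p6).

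The members and all gene lists were chosen with earlier results of these data known. The text names all members, every called gene of the pathway lists and the most abundant genes of each list. Other genes are marked as chosen after their values were seen. Single values of some marker genes are not reported here. The depth ranged from 7559524 to 16877001 counts, where 3 counts correspond to 0.397 and 0.178 CPM.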

Additional observations from a re-analysis of the deposited data

How the results depend on the processing

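The direction of the 7 log2 fold changes was the same in every fit, with 5 values above 0 in all of them. Of the 7 genes, 1 was called with all libraries, 3 without the low-count filter (P2ry6, Entpd1 and P2rx7) and 0 to 2 across the fits that each left out 1 library. P2ry6 was the gene lost without WT replicate 3, GFAP-IL6 replicate 2 or GFAP-IL6 replicate 3, and P2ry12 the gene added without WT replicate 1. Over all genes, 439 were called, and 1154 without the low-count filter and 187 to 1061 when 1 library was left out, lowest without GFAP-IL6 replicate 3 and highest without WT replicate 1, with 282 without GFAP-IL6 replicate 2. With a fold threshold added there were 211 genes, 48 with the prior of DESeq2, which shrinks fold changes by construction, and 129 to 239 when 1 library was left out. In relation to microglial markers, P2ry6 went from 0.41 to -0.28 with the pan-myeloid list. This change of sign follows from subtracting another list mean, which moved the median of all genes tested from -0.69 to -1.39. The cause of the differences in the counts of called genes was not tested.

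Same-numbered deviations from the group mean correlated at 0.10, 0.01 and 0.02. Differently numbered ones were at -0.08 to 0.05, all below 0 except WT replicate 2 with GFAP-IL6 replicate 3. That WT library thus did not correlate best with its own number. With values this small, whether the replicate numbers pair the libraries could not be decided. With the replicate number as a block, 750 genes were called and 2 of the 7, P2ry6 and Entpd1. Pycard and Gsdmd were the 2 called genes of the wider pathway, and the count was 0 to 3 when 1 library was left out, with 0 without GFAP-IL6 replicate 3 and 1 without GFAP-IL6 replicate 1.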
